A study of Mus musculus with 44 samples.

Results

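The genes described here are the ligands and receptors of the 4 best known axon guidance systems, the semaphorins with their plexin and neuropilin receptors, the ephrins with their Eph receptors, the Slits with their Robo receptors, and the netrins with Dcc and the Unc5 receptors. They were chosen by symbol from the genes of the deposited tables, and 69 of 17158 genes were members, 35 ligands and 34 receptors. The ligands were 20 semaphorins (7 of class 3, 6 of class 4, 2 of class 5, 4 of class 6 and 1 of class 7), 5 ephrin-A and 3 ephrin-B genes, 3 Slits and 4 netrins. The receptors were 9 plexins, 2 neuropilins, 9 EphA and 5 EphB receptors, 4 Robo receptors, and Dcc with the 4 Unc5 receptors.

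Growing axons read these proteins as attractive or repulsive cues. Secreted class 3 semaphorins bind a neuropilin that signals through a plexin, membrane-bound semaphorins bind plexins directly, Slits repel through Robo receptors, and netrins attract through Dcc and repel through Unc5 receptors. Ephrins are held in the membrane of one cell and activate Eph receptor tyrosine kinases on another, and many of these genes stay expressed in the mature brain, where they act at synapses and in the vasculature.

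Mouse brain tissues and neuron-enriched cortical cultures were measured in 12 conditions. Each had 1 RNA-seq library, and 10 of them had 1 ribosome profiling library assigned to them. The tissues were hippocampi of E16 embryos, which were dissected individually, and the hippocampus and cortex of an adult male. The cultures were cortical neurons of newborn C57BL6J mice, with pups of both sexes pooled and AraC used against dividing cells. At DIV14 they were left unstimulated, stimulated with BDNF, or stimulated with glutamate and glycine (glu/gly). Another 3 DIV14 cultures carried a lentivirus in which the synapsin promoter, active in neurons, drove EGFP alone (the GFP culture) or with a miR-1 or miR-155 precursor in its 3′ UTR. At DIV10 the cultures were unstimulated or treated with KCl for 10 or 30 min. Poly(A) tails were sequenced in the 9 cultures and adult cortex by TAIL-seq and in both hippocampi by PAL-seq V2. PAL-seq V2 was also applied to the visual cortex of 8 male mice, 6 to 7 weeks old and kept dark for 1 week, of which 4 then had 1 h of light. Only the light experiment had replicates, so every other comparison is between single libraries, and its intervals (95%, exact binomial) cover counting error only.

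RNA-seq libraries held between 448022 and 7689624 reads on genes, the 10 assigned ribosome profiling libraries between 2812215 and 23212489 ribosome-protected fragments (RPFs), and tail libraries between 86841 and 4812273 tags. Members took 0.571% of RNA-seq reads in adult hippocampus, 1.02% in embryonic hippocampus, 0.536% in adult cortex and between 0.350% and 0.452% in the cultures. The median member had 270 reads in the adult hippocampus library, 583 in the embryonic one and 16 in the unstimulated DIV14 culture, so the cultures resolve only the more abundant members. Sums over marker genes also differed between samples. A list of 9 progenitor and immature neuron markers summed to 90.2 reads per 1000000 reads on genes in adult and 3283 in embryonic hippocampus, 6 oligodendrocyte markers to 1684 and 35.2 (Mog at 0 in the embryo), and 7 neuronal markers to 5191 and 2112. In the unstimulated DIV14 culture the oligodendrocyte sum was 64.9, with Mbp, Mog, Mag and Mobp at 0, the microglial sum was 15.7, with P2ry12 and Tmem119 at 0, and the meningeal sum was 1262, against 356 in adult cortex. In the same culture 6 astrocyte markers summed to 2091, against 1699 in adult cortex. Its neuronal sum was 3237, against 5438 in adult cortex. Fewer cells of a type and less RNA per cell cannot be told apart in such bulk samples.

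Levels are given as reads per kb of counted coding sequence and per 1000000 reads on genes (RPKM), so that genes can be compared. The EphA receptors were the family with the largest summed level in adult hippocampus (22.3% of the members' sum of 1831), in adult cortex (23.4% of 1720) and in the unstimulated DIV14 culture (21.5% of 1315). The most abundant of them in these samples was Epha4, a receptor for both ephrin-A and ephrin-B ligands, with a level of 146 in adult hippocampus, 256 in its embryonic counterpart, 184 in adult cortex and 136 in the unstimulated DIV14 culture. Epha4 was the most abundant member in adult hippocampus, in adult cortex and in 5 of the 6 DIV14 cultures.

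The other abundant members differed between the samples. In adult hippocampus Epha4 was followed by the ligand Slit1 (90.6), Epha7 (85.0), the netrin receptor Unc5a (85.0), Efnb3 (83.7) and Epha5 (83.1), and these 5 neighbours lay within a span smaller than the difference to Epha4. In embryonic hippocampus the neuropilins Nrp1 (301) and Nrp2 (256) stood first and level with Epha4, followed by Plxnb2 (196), the netrin receptor Dcc (131), Ephb2 (128), Plxna2 (122) and the ligand Sema3c (111), and the members' sum was 3108. Adult cortex had Sema7a (97.8), Epha5 (87.5), Ephb6 (74.2) and Robo2 (74.0) next below Epha4, the last 2 at nearly the same level. The unstimulated DIV14 culture had both ephrin-B ligands Efnb3 (99.0) and Efnb2 (79.8), and the class 7 semaphorin receptor Plxnc1 (77.4). The netrins were among the scarcest families, and Epha1 had at most 3 reads in either hippocampus.

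**Figure D1:**
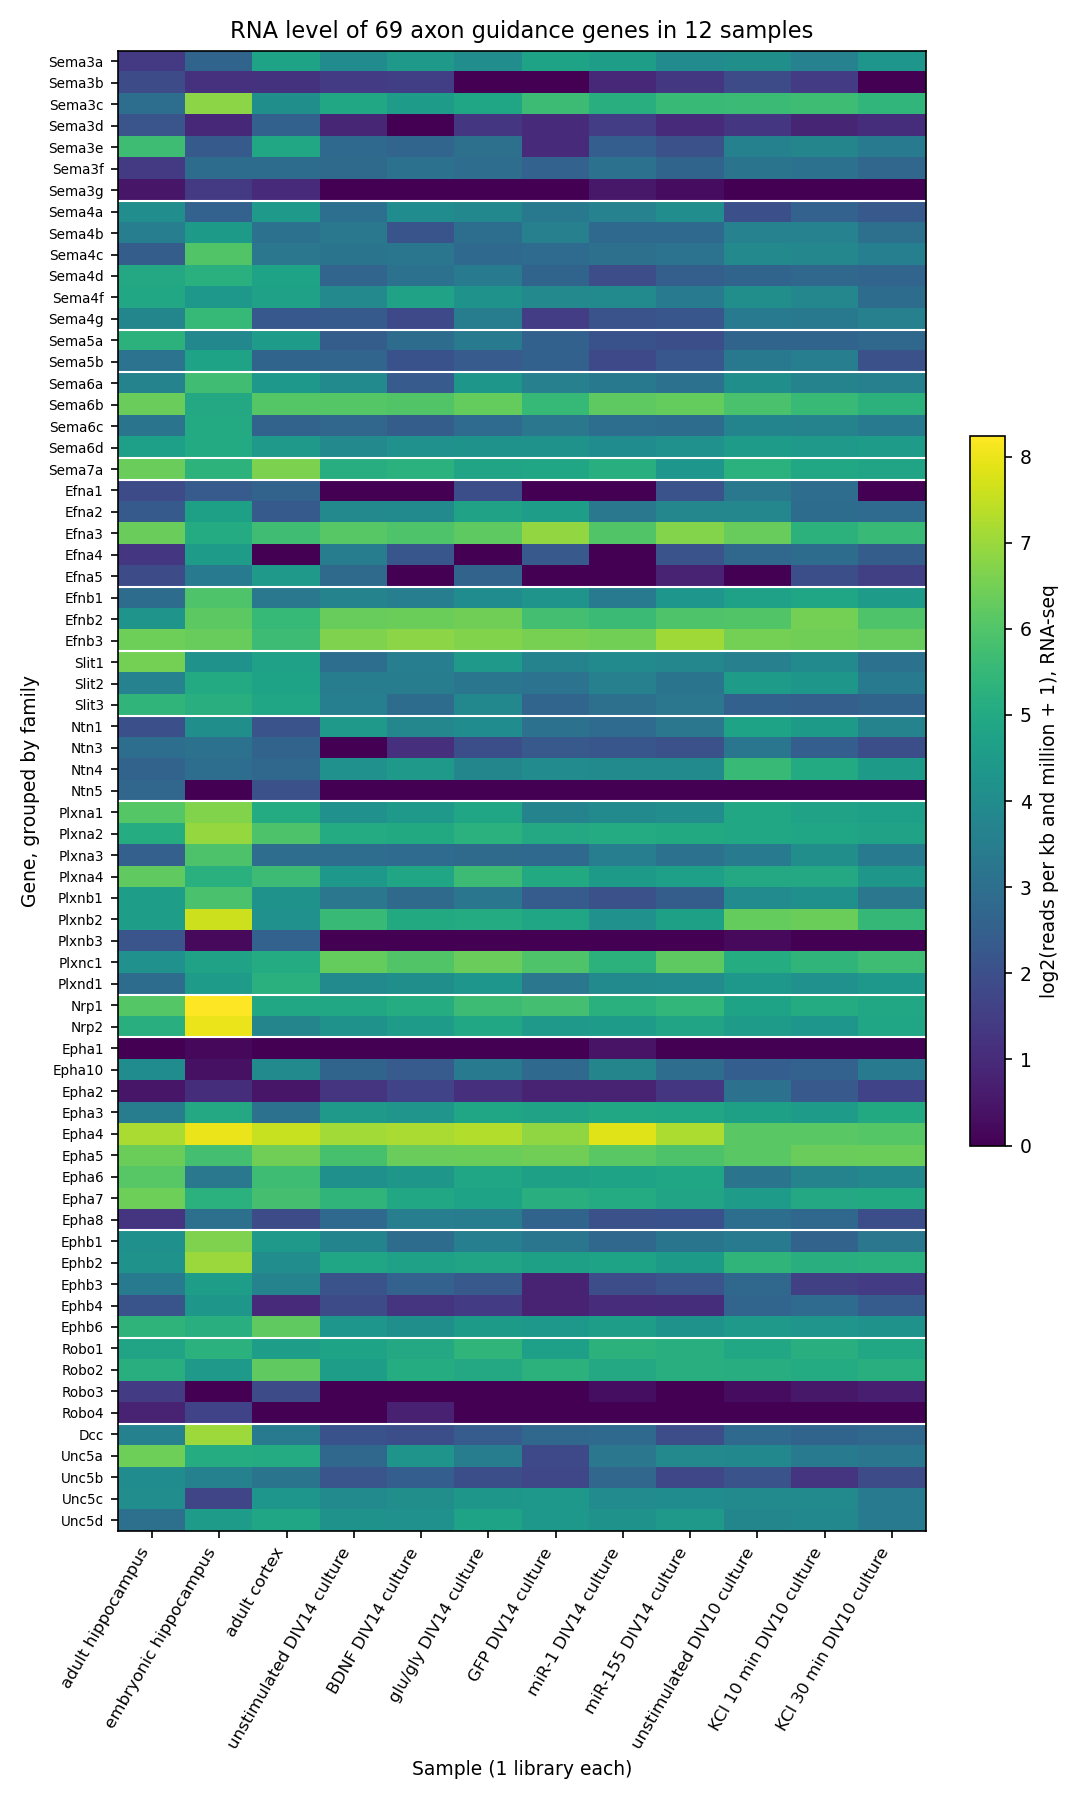
RNA level of the 69 members (rows, grouped by family) in the 12 RNA-seq samples (columns), as log2 of RPKM plus 1, 1 library per sample. Brighter cells are higher levels. Nrp1 (301), Nrp2 (256) and Plxnb2 (196) are bright in embryonic hippocampus, and Epha4 is the brightest row in the adult tissues.

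Embryonic and adult hippocampus were compared first. Most EphB receptors, plexins and class 4 semaphorins, both neuropilins and Dcc were higher in the embryo, and Sema3e, Epha6 and Slit1 were furthest below their adult level among members with enough reads for the comparison. The minimum was set on the deposited RPM, which is relative to a total larger than the reads on genes. Of 69 members, 47 reached a mean of 10 such RPM over the 2 libraries, and 24 of these were at least 2-fold higher in the embryo (25.7% of all 7347 genes that passed were), 10 were at least 2-fold lower (18.7% of all genes) and 13 lay between. The median difference was 1.02 on the log2 scale over these members against 0.29 over all genes. The median was 1.29 over the 26 receptors (14 higher, 4 lower) and 0.43 over the 21 ligands (10 higher, 6 lower). Scaled to the authors' own RPM, 25 members were higher and 6 lower. The other 22 members were too scarce for this count.

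Among the ligands, Sema3c, a secreted semaphorin, had the largest difference. It had 111 reads in adult and 1880 in embryonic hippocampus, levels of 6.91 and 110.8, which is 16.0-fold (log2 4.00, interval 3.73 to 4.29). The membrane-bound Sema4c had 79 and 1180 reads, 14.1-fold (log2 3.82, 3.49 to 4.17). Efnb1 had 47 and 473 reads (log2 3.25, 2.82 to 3.72), Efnb2 126 and 526 (log2 1.98), and the third ephrin-B ligand, Efnb3, 593 in both libraries (log2 -0.08). Class 6 semaphorins split, with Sema6a (263 and 1201 reads, log2 2.11) and Sema6c (166 and 693, log2 1.98) higher in the embryo and Sema6b (1521 and 609, log2 -1.40) lower. Class 4 had 3 of 5 members higher and none lower, the least of the 3 being Sema4b (185 and 396 reads, log2 1.02, interval 0.76 to 1.28).

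Among members past the minimum, Sema3e had the largest difference in the other direction. This class 3 semaphorin, which binds Plxnd1 without a neuropilin, had 828 reads in adult and 70 in embryonic hippocampus, levels of 49.9 and 4.00, or 12.5-fold lower (log2 -3.64, interval -4.02 to -3.29). Slit genes differed among themselves. Slit1 was lower in the embryo, with 2998 and 612 reads (levels 90.6 and 17.5, log2 -2.37, interval -2.50 to -2.25), Slit2 was higher, with 382 and 1123 reads (11.5 and 31.9, log2 1.48, 1.31 to 1.65), and Slit3 lay between, with 1333 and 1214 reads (40.5 and 34.9, log2 -0.21). Efna3 (382 and 162 reads, log2 -1.32), Sema5a (889 and 324, log2 -1.54) and Sema7a (1134 and 583, log2 -1.04) were also lower.

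No netrin reached the minimum. Ntn1, the founding netrin, had 39 adult and 219 embryonic reads (log2 2.41), Ntn3 84 and 97, Ntn4 69 and 96, and Ntn5 46 and 0.

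Among the receptors, the plexins and neuropilins that receive semaphorins were mostly higher in the embryo. Plxna3 had 193 reads in adult and 2563 in embryonic hippocampus (levels 4.76 and 59.9), 12.6-fold (log2 3.65, interval 3.44 to 3.87). Plxnb2 had 929 and 8241 reads (23.3 and 196, log2 3.07, 2.97 to 3.17), and 5 of the 8 plexins that passed were higher. Plxna4 alone among them was at least 2-fold lower (3064 and 1580 reads, log2 -1.03). Both neuropilins were higher, Nrp2 with 696 and 5405 reads (log2 2.88, 2.76 to 2.99) and Nrp1 with 1310 and 6302 (log2 2.19, 2.10 to 2.27).

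Among Eph receptors that passed, those of the EphB class were more often higher in the embryo than those of the EphA class. All 5 EphB receptors passed the minimum and 4 were higher in the embryo. Ephb2 had 378 and 2860 reads (log2 2.84, 2.69 to 3.00), Ephb1 353 and 2229 (log2 2.58), Ephb4 73 and 444 (log2 2.53) and Ephb3 207 and 525 (log2 1.26). Ephb6, which has no active kinase, had 869 and 801 (log2 -0.20). Of 5 EphA receptors that passed, only Epha3 was at least 2-fold higher (213 and 675 reads, log2 1.59). Epha6 was lower, with 1630 and 230 reads (levels 67.0 and 8.95, log2 -2.90), as was Epha7 (1824 and 856, log2 -1.17). Epha4 lay just inside the 2-fold limit (3094 and 5725, log2 0.81). Of EphA receptors below the minimum, Epha8 (30 and 165 reads) and Epha2 (9 and 25) had more reads in the embryo and Epha10 (326 and 7) fewer.

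Of the netrin receptors, Dcc, through which netrins attract, had 351 reads in adult and 4332 in embryonic hippocampus (11.2 and 131), 11.7-fold (log2 3.55, interval 3.39 to 3.71). The repulsive receptors went in different directions. Unc5d had 150 and 493 reads (log2 1.64, 1.37 to 1.91), Unc5a 1638 and 674 (85.0 and 33.1, log2 -1.36, -1.49 to -1.23), Unc5b 309 and 243 (log2 -0.43), and Unc5c, which missed the minimum, 317 and 49 (log2 -2.77). The Slit receptors Robo1 (934 and 1385 reads, log2 0.49) and Robo2 (1155 and 705, log2 -0.79) lay within 2-fold, Robo3 had 51 reads and 0, and Robo4, the endothelial member, 17 and 50. In 7 members, Ephb1, Nrp1, Slit1, Efna3, Epha1, Epha10 and Ntn5, coding exons overlap those of a gene on the opposite strand, by 7 to 159 nt, and whether the counting used strand is not given in the sources used here. In tail-sequencing tags, of which they had few, Sema6b (3 adult and 2 embryonic tags), Sema7a (7 and 3) and Unc5d (11 and 2) differed in the opposite direction. Other scarce members with large differences were Epha10 (326 and 7 reads) and Plxnb3 (144 and 7).

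**Figure D2:**
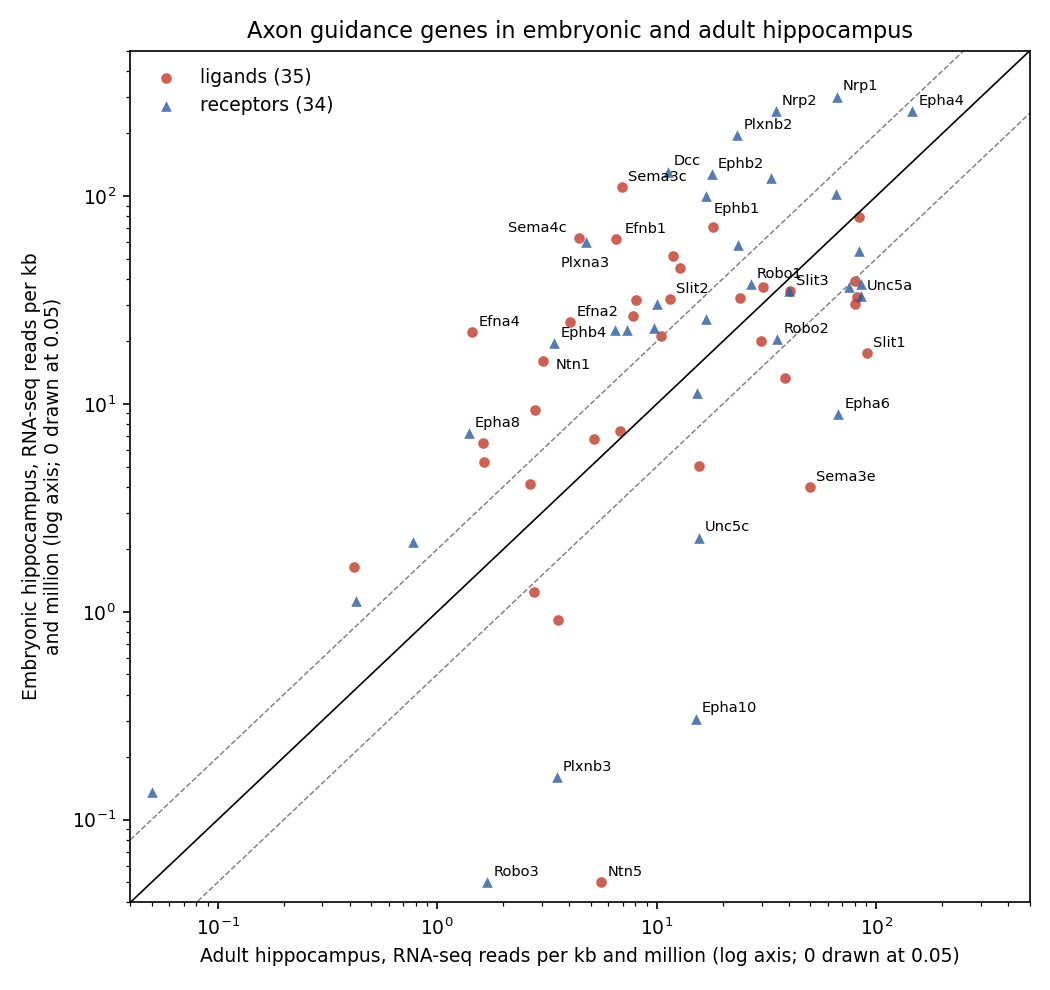
RNA level of each member in adult (x axis) and embryonic hippocampus (y axis), in RPKM on log axes, 1 library each, ligands and receptors in different colours, dashed lines at 2-fold. Sema3c, Sema4c, Plxna3 and Dcc lie far above the upper line and Sema3e, Epha6 and Slit1 far below the lower one, while Epha4 lies between them. Genes with 0 reads are drawn at 0.05.

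Other genes of these pathways came from a list of 56 co-receptors, binding partners and intracellular effectors, of which 55 were found. Their median difference was 0.76 over 50 that passed, against 0.29 over all genes. Of these 50, 20 were at least 2-fold higher in the embryo (25.7% of all genes were) and 8 lower (18.7%). Draxin, a secreted repellent that binds Dcc, had 25 reads in adult and 2332 in embryonic hippocampus (log2 6.46). The effectors Dpysl3 (456 and 15885, log2 5.04) and Dpysl5 (258 and 6945, log2 4.67), collapsin response mediators, were also higher. Ngef, an exchange factor downstream of Epha4, had 1272 and 53 (log2 -4.66), and Chn1, another Epha4 effector, 8263 and 1401 (log2 -2.64).

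Promoter windows (250 bases before to 50 after a start, RefSeq, GRCm38.p6) were found for 59 of the 69 members. The start used is not always the outer end of the gene. The windows of Sema4c and Epha6, printed below, lie inside their genes, whose outer starts are at 36560699 and 60610911. Those of Sema3c and Sema3e span the outer start. These windows had a median of 22 CpG dinucleotides against 18 over 13497 genes of the tables with a window. The motif GGGCGG was present on either strand in 72.9% of members and 57.2% of these genes, CAGATG in 6.78% and 12.8%, and TGACGTCA in 1.69% and 2.86%. Members at least 2-fold higher in the embryo (21 windows, median 24 CpG) and at least 2-fold lower (8 windows, 23 CpG) were alike in this count. The windows of the 2 members past the minimum with the largest difference in each direction are shown as examples of each, with 42 CpG in Sema3c and 11 in Sema3e, where all member windows ran from 2 to 56 (Sema3c chr5:17574566-17574865, plus strand; Sema4c chr1:36558332-36558631, minus strand; Sema3e chr5:14025026-14025325, plus strand; Epha6 chr16:60605482-60605781, minus strand). Each is written 5′ to 3′ on the strand of its gene, with CpG in capitals.
Sema3c: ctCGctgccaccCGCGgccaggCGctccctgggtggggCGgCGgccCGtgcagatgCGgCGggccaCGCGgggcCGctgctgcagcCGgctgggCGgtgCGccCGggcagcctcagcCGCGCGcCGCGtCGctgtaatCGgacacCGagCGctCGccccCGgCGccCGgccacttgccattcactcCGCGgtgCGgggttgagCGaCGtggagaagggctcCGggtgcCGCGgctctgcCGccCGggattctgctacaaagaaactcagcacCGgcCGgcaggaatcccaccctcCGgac
Sema4c: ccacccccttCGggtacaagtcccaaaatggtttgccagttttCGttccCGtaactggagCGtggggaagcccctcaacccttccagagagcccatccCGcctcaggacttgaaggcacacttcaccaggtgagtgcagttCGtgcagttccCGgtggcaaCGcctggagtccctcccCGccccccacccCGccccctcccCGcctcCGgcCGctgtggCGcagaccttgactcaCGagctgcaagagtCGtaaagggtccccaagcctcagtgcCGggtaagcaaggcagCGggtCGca
Sema3e: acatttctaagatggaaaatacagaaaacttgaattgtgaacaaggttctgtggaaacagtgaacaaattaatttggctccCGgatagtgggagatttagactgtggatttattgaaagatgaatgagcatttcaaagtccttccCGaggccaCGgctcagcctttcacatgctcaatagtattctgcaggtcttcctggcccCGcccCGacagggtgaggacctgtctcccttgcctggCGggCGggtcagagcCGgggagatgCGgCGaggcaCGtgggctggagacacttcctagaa
Epha6: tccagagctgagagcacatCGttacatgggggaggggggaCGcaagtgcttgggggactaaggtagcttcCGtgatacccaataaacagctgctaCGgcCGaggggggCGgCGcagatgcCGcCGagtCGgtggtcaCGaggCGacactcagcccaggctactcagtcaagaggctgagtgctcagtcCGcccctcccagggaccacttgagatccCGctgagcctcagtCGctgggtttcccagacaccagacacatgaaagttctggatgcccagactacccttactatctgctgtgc

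Ribosome profiling of the same tissues counts fragments protected by translating ribosomes. The members' median difference was larger in these fragments than in RNA (1.02). Their counts past 2-fold were nearly the same as in RNA, where 24 were higher and 10 lower. The shares over all genes were larger in fragments than in RNA, where they were 25.7% and 18.7%. Of the 47 members, 25 had at least 2-fold more RPFs, relative to depth, in the embryo (32% of all genes did) and 10 at least 2-fold fewer (22.8%), with a median of 1.53 on the log2 scale against 0.31 over all genes. Among ligands, Sema3c had 400 RPFs in adult and 10005 in embryonic hippocampus, Efnb1 had 54 and 1621 (log2 4.81), and Sema6c 67 and 1613 (log2 4.49). Sema3e had 2271 and 87 (log2 -4.81), and Slit1 16702 and 3605 (log2 -2.31).

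Receptors were spread as widely. Dcc had 1203 RPFs in adult and 26478 in embryonic hippocampus (log2 4.36), Ephb1 157 and 6564 (log2 5.29), Epha3 80 and 1952 (log2 4.51) and Plxna3 385 and 8125 (log2 4.30). Ephb4 had a single RPF in the adult and 1079 in the embryo, a ratio of 1007 whose counting interval starts at 180. In the other direction, Epha6 had 4637 and 520 (log2 -3.26) and Ephb6 1505 and 310 (log2 -2.38). Epha10 had 1038 and 0, Plxnb3 290 and 0, and Robo3 114 and 0.

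Some members with RNA had no fragment. Of 62 members with at least 20 RNA-seq reads in embryonic hippocampus, Sema3b, Sema3g and Efna5 had 0 RPFs, whereas all of them had RPFs in adult hippocampus and in adult cortex. Over all genes this was so for 574 of 11619 (4.94%) in the embryo, 368 of 11759 (3.13%) in adult hippocampus and 0.0554% in adult cortex. A gene without an entry was taken as 0, so a 0 here and above can be a missing entry and not a measured 0. A count of 0 at this share of all genes in both hippocampal libraries bears on how a low RPF value there is read, and its origin was not tested.

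Translational efficiency (TE), log2 of RPF over RNA-seq RPM, was compared next. The members' median lay close to that of all genes in the 3 tissues. The median TE was 0.86 over 40 members against 0.88 over all genes in adult hippocampus, 0.82 (46 members) against 0.67 in embryonic hippocampus and 1.35 (36 members) against 1.31 in adult cortex. Individual members spread widely, from -4.45 to 2.30 in adult hippocampus.

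In adult hippocampus the lowest values were those of Sema4g (-4.45, from 230 RNA-seq reads and 15 RPFs), Epha3 (-1.92, 213 and 80), Ephb1 (-1.68, 353 and 157), Ephb3 (-1.02, 207 and 146) and Plxnd1 (-0.69). The highest were those of Unc5c (2.30), Epha4 (2.25), Slit1 (1.97), Nrp1 (1.61) and Slit3 (1.50). In the embryo Sema4g was again lowest (-2.61, 856 and 245), followed by Ephb6 (-2.18, 801 and 310), Unc5a (-0.20), Sema4f (-0.05) and Plxnb1 (0.02), and Ntn1 (2.22), Sema4b (2.05), Efnb2 (1.84), Dcc (1.80) and Slit1 (1.75) were highest. In adult cortex the range was narrower, from Epha6 (0.34), Ephb6 (0.45), Robo2 (0.64), Plxnc1 (0.64) and Robo1 (0.79) up to Slit3 (1.89), Epha4 (2.01), Sema7a (2.15), Sema4a (2.24) and Slit1 (2.50). Slit1 and Epha4 thus stood near the top in both adult tissues, whereas Ephb1, among the lowest in adult hippocampus, had 1.11 in cortex. Hippocampal RNA was poly(A)-selected and cortical RNA was rRNA-depleted. Genes with at least 20 RNA-seq reads but 0 RPFs made up 3.13% in adult hippocampus and 0.0554% in adult cortex. Tissue and preparation differ together here and cannot be told apart.

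TE could be compared between embryonic and adult hippocampus for 35 members. It was at least 2-fold higher in the embryo for 4 (7.66% of all 5431 genes were) and at least 2-fold lower for 2 (15.8%), with a median difference of 0.07 against -0.22 over all genes. The higher ones were the Eph receptors Epha3 (2.65), Ephb1 (2.43) and Ephb3 (1.93), and Sema4g (1.84), and the next was Sema4d (0.98). The lower ones were Ephb6 (-2.46) and Sema4f (-1.02), followed by Epha4 (-0.73), Sema5a (-0.67) and Plxnb2 (-0.65). With the all-gene median set to 0, 8 members were higher and 1 lower, and none of 19 members with at least 30 RNA-seq RPM was higher.

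**Figure D3:**
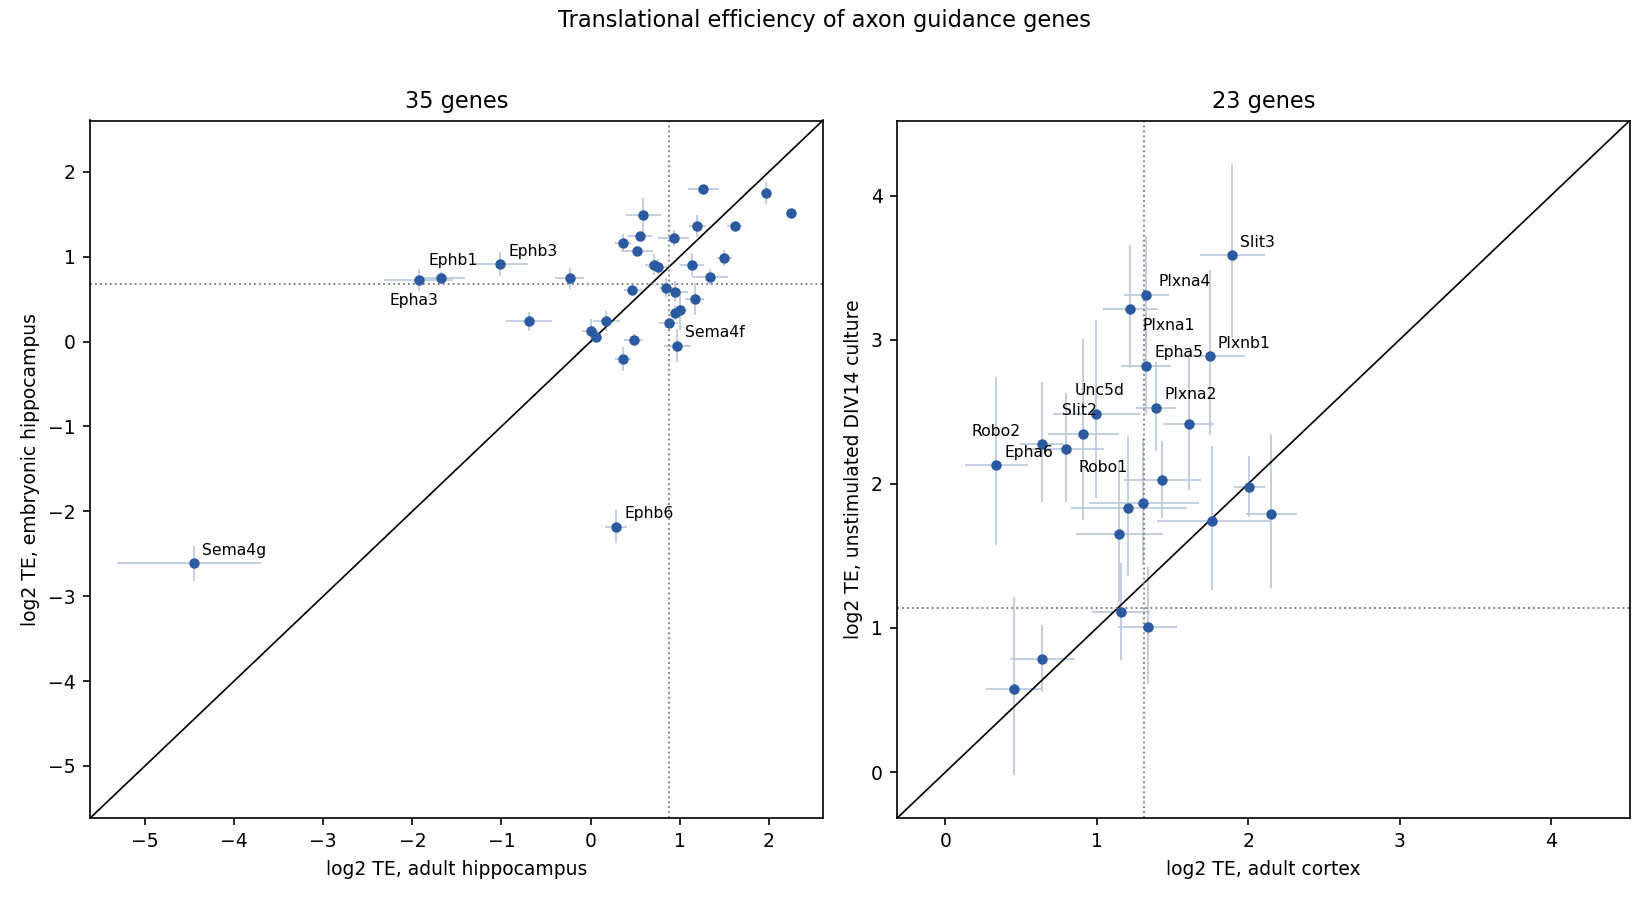
TE of members, log2 of RPF over RNA-seq RPM. Left, adult (x axis) against embryonic hippocampus (y axis) for 35 members. Right, adult cortex (x axis) against the unstimulated DIV14 culture (y axis) for 23 members. Bars are 95% counting intervals and dotted lines the medians of all genes. In the right panel most members lie above the diagonal, and in the left panel Epha3, Ephb1, Ephb3 and Sema4g lie above it and Ephb6 below.

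Cultured cortical neurons were then set against adult cortex. Members were mostly lower in culture. Of 33 that passed the minimum, 3 were at least 2-fold higher in the unstimulated DIV14 culture (17.3% of all 5214 genes were) and 11 at least 2-fold lower (16.3%), with a median of -0.77 against 0.21 over all genes. The RNA difference moved with length, and members are long genes. Among genes with a TE value in both samples, those of at least 2000 nt had an RNA median of -0.33. Shorter ones had 0.53. Whether length accounts for the members' RNA difference was not tested. All 3 Slits were lower. Slit1 had 197 reads in cortex and 16 in culture (log2 -1.87), Slit2 differed by -1.37 and Slit3 by -1.34. In tail-sequencing tags, by contrast, Slit1 had 4 in cortex and 16 in culture (log2 1.20). Robo2 was lower too, with 566 and 53 reads (log2 -1.67). Unc5a (149 and 8 reads, log2 -2.47), Sema5a (121 and 7, log2 -2.36), Ephb6 (380 and 29, log2 -1.96), Epha6 (-1.62), Sema7a (-1.51), Plxnd1 (-1.36) and Plxna4 (-1.30) completed the 11. Higher were Plxnb2 (160 and 130 reads, levels 17.1 and 46.6, log2 1.45), Plxnc1 (32.9 and 77.4, log2 1.23) and Efnb3 (49.3 and 99.0). With median-of-ratios scaling 1 member was higher and 18 were lower. The culture was of newborn neurons at 14 days and the tissue was adult, so age, cell types and culture cannot be told apart.

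The ribosome fragments of the members as a set did not show this deficit. Over the same 33 members the median RPF difference was 0.26, against 0.08 over all genes. The Slits and Robo2 did not show it either. Relative to cortex, the RPFs of Slit1 differed by 0.47 on the log2 scale, Slit2 by 0.01, Slit3 by 0.30 and Robo2 by -0.08, while Unc5a was at -0.57, Sema7a at -1.93 and Ephb6 at -1.89. The TE of members in culture was correspondingly high, with a median of 2.08 over 26 members against 1.14 over all genes, and 21 of the 26 above the all-gene median. The highest values were those of Slit3 (3.58), Plxna4 (3.31), Plxna1 (3.21), Plxnb1 (2.88) and Epha5 (2.82), and the lowest those of Ephb6 (0.58), Plxnc1 (0.78), Epha3 (0.93), Epha7 (1.01) and Sema6b (1.11). In the 6 other cultures with RPFs the members' median was above the all-gene median as well, from 1.52 against 0.74 after 10 min of KCl to 2.22 against 1.26 in the GFP culture.

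The difference in TE between culture and cortex could be computed for 23 members, of which 11 were at least 2-fold higher in culture (12.4% of all 4086 genes were) and 0 at least 2-fold lower (6.02%). The 11 were Plxna1 (1.99), Plxna4 (1.98), Epha6 (1.79), Slit3 (1.69), Robo2 (1.64), Unc5d, Epha5, Robo1 (1.45), Slit2 (1.43), Plxna2 (1.14) and Plxnb1 (1.14), against -0.36 for Sema7a and -0.33 for Epha7 at the other end. The members' median was 0.81 and that of all genes -0.12. This difference moved with length. Members are long genes, with a median counted coding length of 3343 nt against 1781.5 nt over all genes. Over all 1768 genes of at least 2000 nt the median was 0.41 and 25.3% were at least 2-fold higher, against -0.42 and 2.55% over 2318 shorter genes. The 20 members of at least 2000 nt had a median of 1.14 and included all 11. Whether length accounts for the members' difference was not tested.

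The unstimulated cultures of DIV10 and DIV14 came from different experiments. Of 25 members that passed, 2 were at least 2-fold higher at DIV10 (2.98% of all genes were) and 1 was lower (2.25%). Ntn4, a netrin of basement membranes, had 16 reads at DIV14 and 103 at DIV10 (levels 17.1 and 47.1, log2 1.46, interval 0.69 to 2.32), and Slit2 24 and 122 (10.3 and 22.4, log2 1.12). Plxnc1 had 184 and 187 reads, levels of 77.4 and 33.6 (log2 -1.20). Scaled to the authors' RPM, 1 member was higher and 3 were lower. The meningeal marker sum was 1262 at DIV14 and 3335 at DIV10, and its part in these values was not tested.

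Few members differed by 2-fold after stimulation. BDNF and glu/gly share the unstimulated DIV14 control, and both KCl times share that of DIV10. After BDNF, 0 of 26 members were at least 2-fold higher (0.621% of all genes were) or lower (0.796%), and the extremes were Robo2 (0.53) and Plxnb2 (-0.60). After glu/gly, 2 of 30 were higher (2.27%) and 0 lower (0.897%). These were Slit1, with 16 reads unstimulated and 56 after glu/gly (levels 6.92 and 20.5, log2 1.57, interval 0.74 to 2.47), and Plxna4, with 57 and 165 (19.9 and 48.7, log2 1.29, 0.85 to 1.75). Their RPFs differed by less, 0.09 for Slit1 (-0.04 to 0.21) and 0.35 for Plxna4. After glu/gly the members' median RNA difference was 0.33, against -0.03 over all genes, and in RPFs 0.17 against -0.02. The RNA medians were 0.07 against 0.003 after BDNF. They were -0.04 against 0.01 after 10 min of KCl and -0.11 against 0.02 after 30 min.

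After 10 min of KCl, 0 of 27 members were higher (0.116%) or lower (0.194%). After 30 min, 0 of 24 were higher (1.08%) and 2 were lower (2.33%), Slit2 with 122 and 35 reads (22.4 and 9.52, log2 -1.23) and Ntn4 with 103 and 32 (47.1 and 21.7, log2 -1.12). These are also the members that were higher at DIV10 than at DIV14, and they share that control. Their RPFs differed by -0.38 and -0.86. The meningeal sum was 3335 in the control, 2256 after 10 min and 1463 after 30 min, and its part was not tested. Scaled to the authors' RPM, 6 members were lower after 30 min. The members' TE moved with that of other genes, with median differences of -0.08 against -0.11 over all genes after BDNF, -0.33 against -0.30 after glu/gly, -0.46 against -0.41 after 10 min of KCl and 0.47 against 0.32 after 30 min.

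The miR-1 and miR-155 cultures share the GFP control. With miR-1, 0 of 26 members were at least 2-fold higher (0.713%) or lower (1.43%), and the extremes were Epha4 (0.98) and Efna3 (-0.91). With miR-155, 0 of 25 were higher (0.199%) or lower (0.796%), between Plxnd1 (0.79) and Epha5 (-0.53). The seed of miR-155 pairs with AGCATTA, so 3′ UTRs were searched on the mRNA strand for this heptamer, for its extension by an A, the 8mer AGCATTAA, and for GCATTAA, the last 7 letters of the 8mer. A site of any of the 3 kinds was found in 10 of 69 members (14.5%) and 2000 of 17004 genes (11.8%). The mature miRNA (chr16:84714143-84714165, plus strand) and the 3 members with an 8mer are shown because these are the sites through which the miRNA could pair, with the seed and the 8mer in capitals (GRCm38, Sema5a chr15:32690518-32690525, plus strand; Nrp1 chr8:128504947-128504954, plus strand; Epha5 chr5:84057811-84057818, minus strand).
mmu-miR-155-5p: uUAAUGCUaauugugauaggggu
Sema5a: cccctatcaagAGCATTAAaggtgtgtaaa
Nrp1: actggggggaaAGCATTAAgtaagactttg
Epha5: tatactaagacAGCATTAAaaagtgaagaa

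Of the members with a site, 5 passed the minimum. Epha5 differed by -0.53 (interval -0.85 to -0.19), Nrp1 by -0.33, Ephb2 by -0.19, Unc5d by 0.09 and Epha4, which has only GCATTAA, by 0.38. Their median of -0.19 lay below that of the 20 members without a site (0.13), as the median of all 659 genes with a site (-0.20) lay below that of 3846 without (0.03). With 1 library a condition and 5 genes, this is a description of these libraries. The scarce Sema5a did not reach the minimum.

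Poly(A) tails of members were, on the median, longer than those of other genes in each TAIL-seq sample. A mean length was used where a gene had at least 50 tags, which 3 to 16 members reached. In the unstimulated DIV14 culture the median was 127.2 nt over 14 members, 13 of them above the all-gene median of 111.8 nt, and in adult cortex it was 112.8 nt over 5 members against 99.5 nt. In the 8 other cultures the gap was smallest after glu/gly (109.7 against 107.1 nt, 6 of 10 members above) and largest after 10 min of KCl (119.3 against 103.4 nt, 8 of 9 members above).

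Efnb3, a ligand of EphB receptors and Epha4, had the longest tail of the members in all 9 cultures, from 127.2 nt with miR-1 to 144.2 nt after 10 min of KCl, at or above the 97.6 percentile of all genes. In adult cortex it had 116.8 nt, where Plxna2 was longer (119.5 nt), and in visual cortex, measured by the other method, 79.0 nt in the dark and 79.3 nt after light, at the 15.9 percentile. Plxna1, by contrast, was long in both, with 125.1 to 135.9 nt in cultures and 113.4 and 114.8 nt in visual cortex, where it stood at the 99.7 percentile. Method, age and culture differ together between these samples and cannot be told apart.

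**Figure D4:**
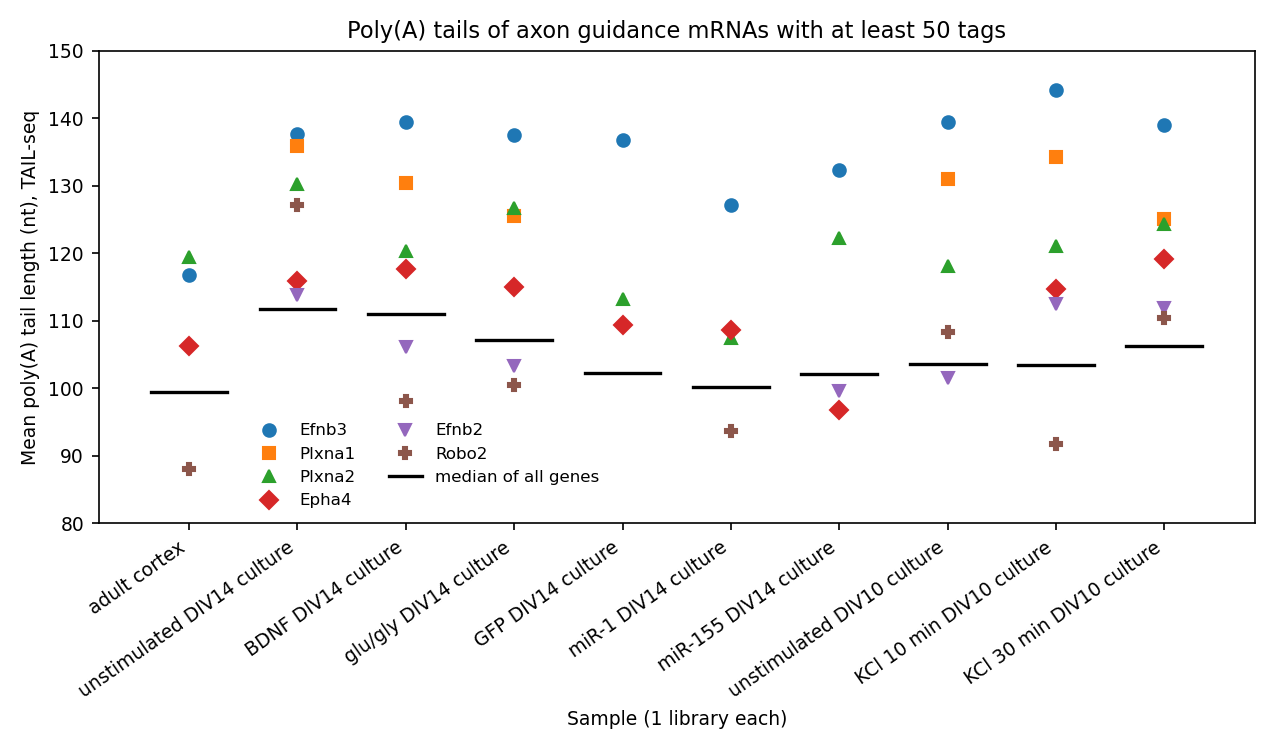
Mean poly(A) tail length in nt (y axis) of 6 members in the 10 TAIL-seq samples (x axis), for genes with at least 50 tags, with a horizontal bar at the median of all genes of each sample. Efnb3 is the longest member in all 9 cultures (127.2 to 144.2 nt), and Robo2 lies below the all-gene median in several samples but not in the unstimulated DIV14 culture (127.1 nt).

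After stimulation the tails of single members differed by at least 10 nt. After BDNF, 0 of 11 members were that much longer (6.27% of all genes were) and 2 were shorter (9.03%), Robo2 by 29.0 nt and Plxnc1 by 12.9 nt. After glu/gly, 0 of 9 were longer (2.79%) and 3 were shorter (20.2%), Robo2 by 26.6 nt, Efnb2 by 10.5 nt and Plxna1 by 10.4 nt, where all genes had a median difference of -4.68 nt, and with that median set to 0, 1 was shorter. After 10 min of KCl, 1 of 7 was longer (7.79%), Efnb2 from 101.5 to 112.5 nt, and 1 was shorter (7.59%), Robo2 by 16.6 nt. After 30 min, 1 of 8 was longer (11.8%), Efnb2 with 112.0 nt, and 1 was shorter (4.23%), Plxnb2 from 128.3 to 115.2 nt. Robo2 had 127.1 nt in the shared DIV14 control, from 71 tags, but 98.1 nt after BDNF, 100.5 nt after glu/gly and 88.1 nt in adult cortex, from 69 to 75 tags, so both of its DIV14 differences rest on the one control value. No member had 50 tags in both hippocampi. Epha4, which reached 50 tags in the adult only, had 40 tags in the embryo and 79 in the adult, with 43 and 45 nt. Over all genes with at least 50 tags the medians were 64 and 54 nt, so Epha4 lay below both.

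Light after dark housing was the only replicated comparison, in visual cortex, with 4 mice per group and tags of the tail libraries as counts. One guidance gene rose with light. Ephb3, a receptor of ephrin-B ligands, had 25.3, 27.6, 18.0 and 30.6 tags per 1000000 tags (CPM) in the 4 dark mice and 47.8, 70.9, 64.4 and 37.4 in the 4 light mice, means of 25.4 ± 5.40 and 55.1 ± 15.3 (SD, n = 4). All light mice were above all dark mice. The difference was 1.13 on the log2 scale (SE 0.20), with an adjusted p of 0.00150 by edgeR's quasi-likelihood test over 9554 genes, of which 1.34% were called. It was called in every alternative fit, with adjusted p between 1.46e-06 and 0.0129.

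No other of the 50 members tested was called. Sema4d, a membrane-bound ligand of Plxnb1, had 11.1 ± 1.28 CPM in the dark and 6.93 ± 1.50 after light (log2 -0.65, SE 0.31, adjusted p = 0.52 by edgeR), with groups that did not overlap. Slit2 had 10.0 ± 1.18 and 14.8 ± 5.16 (adjusted p = 0.55), Plxnb1 28.3 ± 4.67 and 36.0 ± 5.67 (adjusted p = 0.55), and Nrp1 34.1 ± 3.90 and 41.2 ± 6.72 (adjusted p = 0.58). Besides Ephb3 and Sema4d, the groups did not overlap for Ephb2, which had 25.8 to 33.0 in the dark and 13.0 to 25.7 after light (log2 -0.40, adjusted p = 0.59). Groups that do not overlap were seen in these 3 of 50 members and in 5.76% of the 9554 genes, a similar share. The median member differed by -0.07, and none of 47 tested genes of the list of other pathway genes was called.

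**Figure D5:**
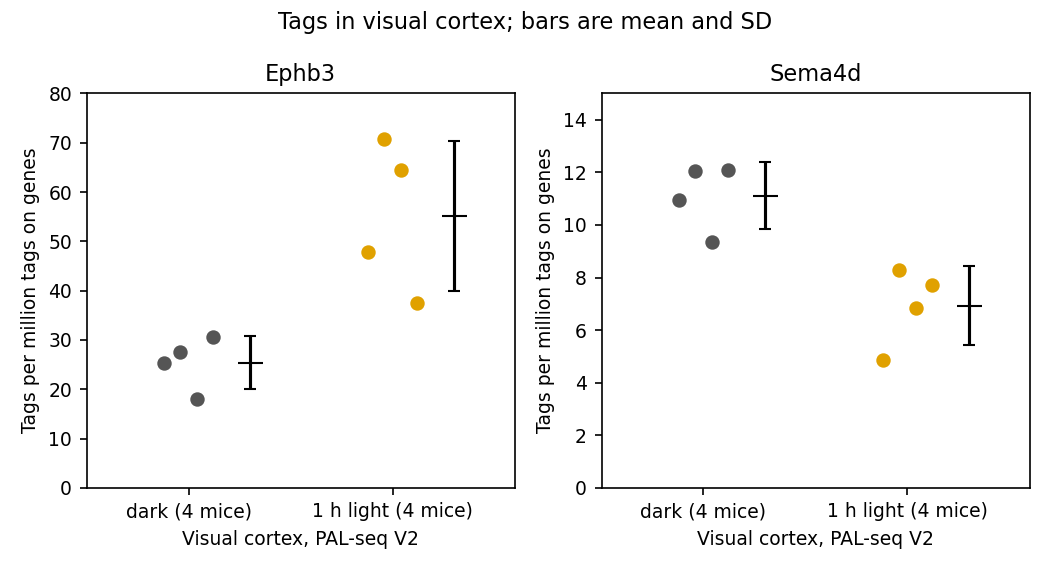
CPM (tags per 1000000 tags, y axis) of Ephb3 and Sema4d in visual cortex of dark-housed mice and of mice given 1 h of light, 1 point per mouse (n = 4 per group), with mean and SD. The 4 light mice lie between 37.4 and 70.9 for Ephb3, above the 4 dark mice (18.0 to 30.6), and below the dark mice for Sema4d.

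The promoter window of Ephb3 was chosen for display after its values were seen. Most of it lies after the outer start of the gene at 21204620. It spans chr16:21204545-21204844 on the plus strand and holds 23 CpG, shown in capitals.
Ephb3: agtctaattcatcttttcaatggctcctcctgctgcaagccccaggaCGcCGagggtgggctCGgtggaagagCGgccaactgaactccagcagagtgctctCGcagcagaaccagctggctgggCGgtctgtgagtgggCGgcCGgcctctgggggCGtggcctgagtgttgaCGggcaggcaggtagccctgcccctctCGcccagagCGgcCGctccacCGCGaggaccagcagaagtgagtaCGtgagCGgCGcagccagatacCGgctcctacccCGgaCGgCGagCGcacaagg

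In the cultures Ephb3 had 1 to 22 RNA-seq reads, too few for a comparison, but its RPFs could be compared. They numbered 76 in the unstimulated DIV14 culture, 86 after BDNF (log2 0.41 relative to depth, interval -0.05 to 0.87) and 82 after glu/gly (0.73, 0.27 to 1.20), and 247 at DIV10, 178 after 10 min of KCl (0.31) and 105 after 30 min (0.40). All of these differences were positive, each pair against a shared control, and none reached 2-fold. The GFP culture, also at DIV14 and without a stimulus, had 86 RPFs of Ephb3, a level of 9.94 RPKM. The level was 9.94 after glu/gly, 7.93 after BDNF and 5.98 in the unstimulated DIV14 culture. The GFP culture also carried a lentivirus, unlike the DIV14 control, and each level is from 1 library. Whether stimulation had a part in these differences was not tested.

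Tail lengths after light could be tested for 9 members with at least 50 tags in all 8 mice. None was called by limma (0.231% of 4321 genes were), and none had an unadjusted p under 0.05. Of the 9, 8 were longer after light, with a median difference of 6.90 nt against 3.75 nt over all genes. The lowest p was that of Sema6d, with 85.3 ± 11.2 nt in the dark and 97.0 ± 14.1 nt after light (SD, n = 4, adjusted p = 0.999 by limma). Robo2 had 84.1 ± 9.52 and 94.4 ± 7.35 nt. limma gave all 9 members the same SE, 6.68 nt, so it does not reflect the spread of each gene. At this SE, shifts of the size seen were not called with 4 mice per group. Within a group, the members' SDs ranged from 5.63 nt (Plxna2, dark) to 22.1 nt (Plxna1, dark).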

How the data were processed

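RNA-seq and ribosome profiling reads were aligned to mm10 by the authors (STAR 2.4.2 and bedtools in the submitters' processing notes), who deposited read counts, RPM and RPKM over the coding sequence of 1 gene model per gene without its first 50 nt. They also deposited log2 TE values, and tag counts with tail lengths in nt per gene. The hippocampal tail values are all multiples of 0.5, unlike the means of the other files, and were not compared with them. Hippocampal RNA was poly(A)-selected, and adult cortex and 6 cultures were rRNA-depleted.

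Levels and differences were computed from the deposited counts relative to all reads on genes, and TE from the authors' RPM (at least 10 RPM of RNA-seq and 1 RPF). Single libraries were compared without a test, by a 2-fold limit at a mean of at least 10 of the authors' RPM (10 nt and 50 tags for tails), with Clopper-Pearson 95% intervals. A count of 3 served as floor. A gene that a file does not list was taken as 0. The 8 light libraries were tested with edgeR 4.0.16 (quasi-likelihood, TMM) on tags and limma 3.58.1 on mean tail length, adjusted over all genes (Benjamini-Hochberg), and DESeq2 1.42.0 as an alternative, in R 4.3.3. Each of these libraries came from 1 mouse. Both tests were checked on simulated data. Other values were computed in Python 3.11.15 with pandas 2.3.3, NumPy 2.4.6, SciPy 1.17.1 and matplotlib 3.10.9.

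Members and lists were chosen with earlier results of these data known. Named were the largest differences in each direction per comparison, the 5 highest and lowest TE values, the 5 lowest p with light, and always the Slits, Robos, netrins, Unc5 receptors, Dcc and neuropilins. Protein sequences were not used. In the light experiment the sample numbers were taken as names, since same-numbered mice did not deviate together.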

Additional observations from a re-analysis of the deposited data

Results flagged for a closer look

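The tail length of Plxna2, a receptor of semaphorins, had 1 dark mouse far from the others. The 4 dark mice had 93.7, 95.1, 94.4 and 83.2 nt, and the gap below the lowest of the other 3 was 0.883 of the group's range, above Dixon's 95% critical value for 4 samples. Of 28 groups of 4 examined in this way, this was the 1 found, and chance flags about 1 in 20.

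Another 2 ribosome profiling libraries, whose labels do not settle which miRNA culture they came from, entered no comparison. Members took 0.554% of the 817114 RPFs of the first (4523 on 60 members) and 0.623% of the 6428048 RPFs of the second (40043 on 65 members).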

How the results depend on the processing

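Single libraries, and few reads per member in the cultures, limit most comparisons. Of 184 alternative counts of members, 122 stayed within 1.5 times and 62 did not. Of 252 alternative values of single members, 178 were labelled the same, 70 moved by more than their error, and 4 changed direction. In the light experiment, the same meant an unchanged call and direction, however far the value moved. Elsewhere it meant a move of less than the error. The 4 that changed direction all had tail-sequencing tags in place of RNA-seq reads. They were Sema6b (0.77), Sema7a (0.13) and Unc5d (-1.11) in hippocampus, and Slit1 in culture against cortex (1.20), each on 2 to 16 tags. Causes were not tested unless the alternative's construction (fewer or more genes) shows them. Counts of members at least 2-fold higher and lower moved as follows. The share of all genes under each altered setting is not given. These counts therefore do not separate a change in the members from a shift of all genes. The same holds for the altered counts given in the sections above. With a mean of at least 30 RPM, hippocampus had 15 higher in RNA and 16 in RPFs, cortex culture 5 lower, DIV10 0 higher, glu/gly 1 higher, 30 min of KCl 0 lower; TE had 0 higher and 1 lower in the embryo and 2 higher in culture. With at least 3 RPM, culture against cortex had 6 higher and 19 lower, DIV10 6 and 3, BDNF 2 and 2, 30 min of KCl 1 and 5, glu/gly 4 higher, 10 min of KCl 1 lower, miR-1 2 higher and miR-155 1 higher. With the authors' RPM, 6 were lower in the embryo, 1 higher and 3 lower at DIV10, 6 lower after 30 min of KCl and 2 higher with miR-1. With median-of-ratios scaling, culture against cortex had 1 higher and 18 lower, DIV10 2 lower and miR-1 1 higher. With tags, hippocampus had 14 higher and 4 lower, culture 6 and 7, DIV10 3 lower, BDNF 1 and 1, glu/gly 1 higher, 10 min of KCl 1 and 1, 30 min 2 and 1, miR-1 3 and 3, and miR-155 4 higher. With the all-gene median set to 0, TE had 8 higher and 1 lower in the embryo, and tails had 1 shorter after glu/gly and 0 longer after 30 min of KCl. With at least 20 tags, tails longer and shorter numbered 2 and 4 after BDNF, 2 and 11 after glu/gly, 3 and 5 after 10 min of KCl, and 5 and 2 after 30 min; with at least 100 tags, 1 was shorter after BDNF, and 0 were longer or shorter after either KCl time. In the light experiment, Ephb3 was the 1 member called, and no tail, in all fits run, DESeq2 and each left-out library included. With the sample number as a replicate block, Ephb3 was called with an adjusted p of 0.00591 by edgeR and no member's tail was called, and all genes called numbered 113 and 1. Same-numbered mice did not deviate together (correlations from -0.20 to 0.03 for expression and from -0.11 to 0.04 for tails), and only number 2, for tails, matched its own number best.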
